A study of Drosophila melanogaster with 6 samples.

Results

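The genes described here are 43 genes of the fly's Toll and Imd immune pathways, together with the antimicrobial peptides these pathways induce. They were chosen by gene symbol from a fixed list of recognition, signalling and effector genes, and all 43 were found among the 17117 rows of the table. Of the 43, 28 (65.1%) had reads in at least 1 library, against 9286 of all 17117 rows (54.3%). No library held a read of the other 15.

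Messenger RNA was measured in mushroom body output neurons (types γ5β′2a, β′2mp, β′2mp_bilateral) sorted by fluorescence from brains of mated Drosophila melanogaster females. The flies were 3 to 4 days past eclosion and were dissected from ZT 12 on, the start of the dark phase. In 3 libraries the neurons carried a sponge transcript for the microRNA bantam (UAS-CD8::GFP, with R14C08-p65.AD over UAS-bantam_sponge and R15B01-GAL4.DBD over UAS-bantam_sponge). In the other 3 they carried UAS-scramble_sponge at both places, with the same GFP marker and the same split-GAL4 parts. Both genotypes therefore share GFP, the driver and a sponge transcript, and the sponge is expressed only where both driver parts are active. The labels do not say how many brains were pooled for a library.

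In flies, Toll is a membrane receptor activated by the cleaved cytokine Spätzle, and it signals through an adaptor and kinase complex to free the Rel-family factors Dorsal and Dif from the inhibitor Cactus. The Imd pathway starts at peptidoglycan recognition proteins and ends with cleavage of another Rel-family factor, Relish. Both pathways are best known for switching on antimicrobial peptide genes in fat body and hemocytes, and several Toll-family receptors also act in the nervous system.

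The deposited table gives 1 comparison, with a mean log2 CPM (reads scaled to library size) over both genotypes, a log2 fold change of bantam sponge over scramble sponge and an unadjusted exact p for each gene, and no value per library. Whole reads per library were worked back from the digits of these values for 3026 of the 9286 genes with reads (32.6%), among them 20 of the 28 genes described here. For the other 8 (Tl, Toll-6, Toll-7, spz, tub, cact, Tak1 and Rel) no combination of reads over up to 3 libraries, or 4 for Tl, Toll-7, spz and tub, gave back the deposited values. The recovered effective library sizes were 119.1, 43.76 and 8.182 megareads in bantam sponge and 98.01, 43.57 and 5.306 megareads in scramble sponge. They are called deep, middle and shallow below, and which replicate number each one has is not known. The vesicular glutamate transporter gene VGlut, a marker of these neurons, had a mean log2 CPM of 10.70 in the authors' deposited table. Got2, the other marker listed for them, had a mean log2 CPM of 6.45 there and a log2 fold of −3.10 (exact p = 0.267). All 10 pan-neuronal marker genes had reads, but so did 9 of 10 glia markers, so having reads does not separate cell types. A count of 0 still allows 3 reads, which is at most 0.367 CPM in the bantam sponge libraries and at most 0.565 CPM in those of scramble sponge. Both bounds hold for counting error alone, because 25 cycles of PCR copy the same molecules.

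Of the 43 genes, 0 passed an adjusted p of 0.05 in the comparison of the genotypes (authors' edgeR exact test, Benjamini-Hochberg adjustment over all 17117 rows), and neither did any other gene (0.00%). At an unadjusted p under 0.05, 1 of the 43 was higher in bantam sponge, against 0.573% of all rows and 1.06% of genes with reads. Another 4 were lower in bantam sponge, against 1.69% of all rows and 3.12% of genes with reads. The gene on the higher side was pll, and those on the lower side were Drs, lectin-24Db, 18w and nec. All 5 had no read in 1 genotype. At an unadjusted p under 0.01 the counts were 0 higher, against 0.0818% of all rows and 0.151% of genes with reads, and 2 lower (Drs and lectin-24Db), against 0.269% of all rows and 0.495% of genes with reads. Of the 23 at or above a mean log2 CPM of 0, 6 had no read in bantam sponge and 1 had none in scramble sponge, against 8.51% and 4.50% of the 7252 genes at that level. Over the 28 genes with reads the median log2 fold was 0.50, with 16 folds above 0 and 12 below. Over all 9286 genes with reads the median was −0.13, with 4316 folds above 0 and 4970 below. Over the 16 genes read in both genotypes the median was 1.20.

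**Figure D1:**
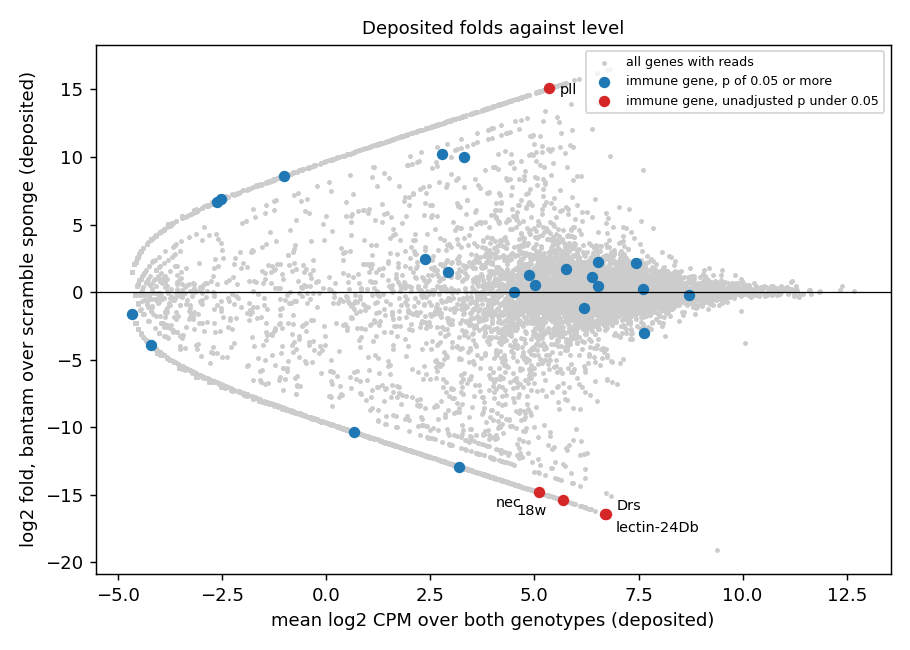
Deposited log2 fold of bantam sponge over scramble sponge (vertical) against mean log2 CPM over both genotypes (horizontal) for all 9286 genes with reads in grey and the 28 immune genes with reads in colour. The 5 immune genes at an unadjusted p under 0.05 (red) lie on the outer edges, where a genotype had no read and the fold depends on the prior count.

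Of the 20 genes with recovered reads, 8 were read in 1 library, 6 in 2, 4 in 3 and 2 in 4 libraries. The search reached at most 4 libraries, so genes read more widely could not be among the 20, and the 8 genes without recovered reads are not in these counts. Over the whole table, where most rows were searched up to 2 libraries, 1859 of 3026 recovered rows were read in 1 library. In 13 of the 20 genes, over 90% of the CPM summed over libraries lay in a single library. Added over the 20 genes, the level was 270.0, 308 and 387 CPM in the deep, middle and shallow bantam sponge libraries, against 124.8, 1513 and 484 CPM in the deep, middle and shallow scramble sponge libraries. The middle scramble sponge library thus stood highest, and the deep one of that genotype lowest. Most of the highest sum came from genes named above for their unadjusted p. These were lectin-24Db at 623 CPM, Drs at 311 CPM, 18w at 309 CPM and nec at 206 CPM in the middle scramble sponge library.

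**Figure D2:**
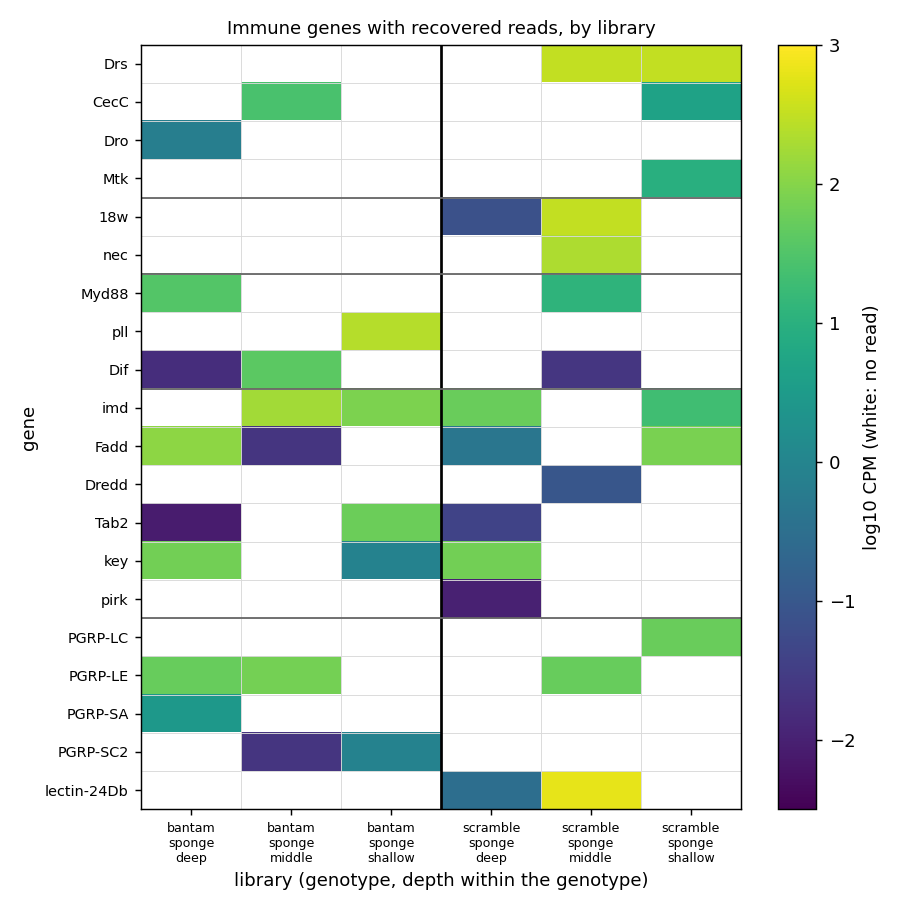
Level of the 20 immune genes with recovered reads (rows, grouped by role) in each of 6 libraries (columns, bantam sponge left of the black line, scramble sponge right), as log10 CPM in colour, with white for no read. Drs, 18w, nec and lectin-24Db have colour only on the scramble sponge side, and genes read in over 4 libraries could not be recovered and are not shown.

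Antimicrobial peptide genes were for the most part not detected. Of 15, the 11 genes Drsl5, AttA, AttB, AttC, AttD, CecA1, CecA2, CecB, Def, DptA and DptB had no read in any library. Among them are the attacins, diptericins and Defensin, peptides active mainly against bacteria. The 4 detected peptide genes were Drs, CecC, Dro and Mtk.

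Drs encodes Drosomycin, an antifungal peptide and the usual readout of Toll signalling (3L:3369556-3369942, dm6, plus strand). It had 0 reads in each of the 3 bantam sponge libraries, against 0, 13540 and 1678 reads in the deep, middle and shallow scramble sponge libraries. The last 2 values correspond to 311 and 316 CPM. The mean was 0 CPM in bantam sponge and 209 ± 181 CPM in scramble sponge (SD, n = 3 each). The groups met at 0, since the deepest scramble sponge library also had no read. Set against 3 reads in every bantam sponge library, the scramble sponge mean was 1362-fold higher. That ratio leaves out the spread between the scramble sponge libraries, so it is not a lower bound. The exact p was 0.00107 in the authors' deposited table, with an adjusted p of 1.

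Mtk, which encodes the antifungal peptide Metchnikowin, had 0 reads in the bantam sponge libraries and 50 reads in the shallow scramble sponge library alone, which is 9.42 CPM there (exact p = 0.219, authors' deposited table). CecC, a cecropin, was read in both genotypes, with 1145 reads in the middle bantam sponge library and 25 in the shallow scramble sponge library. Its levels were 8.72 ± 15.1 CPM in bantam sponge and 1.57 ± 2.72 CPM in scramble sponge (SD, n = 3 each), and the groups overlapped. Dro, the gene of the peptide Drosocin, had 84 reads in the deep bantam sponge library and none elsewhere (exact p = 0.345, authors' deposited table). Reads of cecropin genes can be split between near-identical copies, and how such reads were counted is not given in the sources used here.

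Of 7 genes for Toll-family receptors, the ligand and a serpin, 6 had reads and Tollo had none. Toll-6, a receptor with known roles in neurons, had a mean log2 CPM of 8.71 in the authors' deposited table. Its log2 fold there was −0.21 with an exact p of 0.894, and the 95% interval worked back from that p ran from −3.60 to 3.18. Tl, the founding Toll receptor, had a log2 fold of 1.13 (95% interval −4.48 to 6.74, exact p = 0.645) in the authors' deposited table. Toll-7, a receptor with a described role in virus recognition in the fly, had a log2 fold of −1.15 (−7.31 to 5.002) in the authors' deposited table. For spz, the gene of the ligand Spätzle, the log2 fold there was 2.22 (−3.83 to 8.28). Every one of these intervals held 0.

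18w encodes another Toll-family receptor, 18 wheeler (2R:20111511-20116932, plus strand). It had 0 reads in each bantam sponge library, against 7, 13467 and 0 reads in the deep, middle and shallow scramble sponge libraries. The middle scramble sponge library thus held nearly all reads, 309 CPM, and the groups met at 0. Its exact p was 0.0132 in the authors' deposited table, with an adjusted p of 1. Without the middle scramble sponge library, 7 reads would be left in all.

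The serpin gene nec encodes Necrotic, an inhibitor of the protease cascade upstream of Spätzle (2R:7156477-7158241, minus strand). It had 0 reads in each bantam sponge library, against 0, 8987 and 0 reads in the deep, middle and shallow scramble sponge libraries (exact p = 0.0396, authors' deposited table). The single library with reads had 206 CPM. Without it no read of nec would be left.

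Inside the cell, 5 of 6 Toll signalling genes had reads, all 5 with folds above 0, and dl, the gene of the factor Dorsal, had none. The kinase gene pll, for Pelle, was the only one at an unadjusted p under 0.05 (exact p = 0.0449, authors' deposited table; adjusted p of 1). It had 0, 0 and 2008 reads in the deep, middle and shallow bantam sponge libraries, against 0 reads in each scramble sponge library. All reads, 245 CPM, thus came from the shallowest bantam sponge library, and without it none would be left. Exons of pll (3R:27251131-27253182, minus strand) share 31 bases with TfIIA-L on the other strand, and whether reads were counted by strand is not given in the sources used here.

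Dif, a Rel-family factor downstream of Toll, had 2, 1793 and 0 reads in the deep, middle and shallow bantam sponge libraries, against 0, 1 and 0 reads in the scramble sponge libraries. One library again held 99.9% of the summed CPM, and the exact p was 0.0895 in the authors' deposited table. Exons of Dif overlap CG15141 on the opposite strand by 252 bases. The adaptor gene Myd88 was read in 1 library of each genotype, with 3957 reads in the deep bantam sponge library and 520 reads in the middle scramble sponge library. These amount to 33.2 CPM and 11.9 CPM, and the groups overlapped at 0.

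The adaptor gene tub, for Tube, and cact, the gene of the inhibitor Cactus, stood at a mean log2 CPM of 6.54 for tub and 7.62 for cact (authors' deposited table). The log2 folds there were 0.46 (95% interval −5.94 to 6.86) for tub and 0.25 (−4.82 to 5.32) for cact, with exact p-values of 0.864 and 0.91. Both intervals held changes of several log2 units in either direction.

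Of 9 genes of Imd signalling inside the cell, 8 had reads, and none reached an unadjusted p under 0.05 in either direction. IKKbeta, the catalytic kinase subunit that acts on Relish, had no read. Rel, which encodes Relish, had a fold of −2.998 on the log2 scale of the authors' deposited table, with a 95% interval of −7.85 to 1.86 and an exact p of 0.192. Taking 1 level for the 3 libraries of a genotype, this is 43.8 CPM in bantam sponge and 350 CPM in scramble sponge. The kinase gene Tak1 lay in the other direction, at a log2 fold of 2.12 (−2.20 to 6.43, exact p = 0.295) in the authors' deposited table, which is 283 CPM in bantam sponge and 65.2 CPM in scramble sponge.

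**Figure D3:**
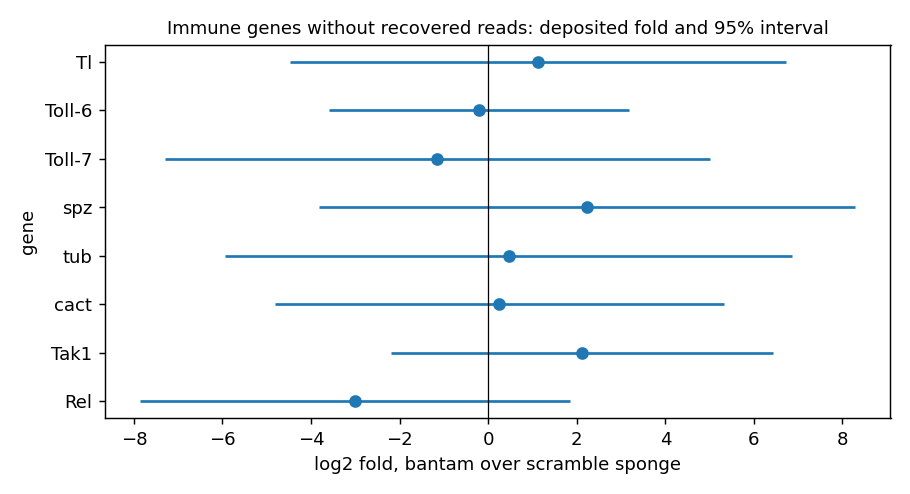
Deposited log2 fold of bantam sponge over scramble sponge (points) with the 95% interval implied by the deposited p (lines) for the 8 immune genes whose reads per library were not recovered (rows). All 8 lines cross 0, and that of Rel reaches from −7.85 to 1.86.

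The adaptor gene imd was read in 2 libraries of each genotype. It had 0, 7393 and 658 reads in the deep, middle and shallow bantam sponge libraries, against 5378, 0 and 109 reads in the deep, middle and shallow scramble sponge libraries. Levels were 83.1 ± 84.5 CPM in bantam sponge and 25.1 ± 27.7 CPM in scramble sponge (SD, n = 3 each), and the groups overlapped. The exact p was 0.642 in the authors' deposited table.

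Fadd, whose product links Imd to a caspase, had 13609, 1 and 0 reads in bantam sponge, against 44, 0 and 416 reads in scramble sponge, each from deep to shallow. The regulatory kinase subunit gene key, for Kenny, had 7930, 0 and 7 reads in bantam sponge, against 6766, 0 and 0 reads in scramble sponge. Its deep libraries were close, at 66.6 CPM in bantam sponge and 69.0 CPM in scramble sponge. Tab2, a partner of Tak1, had 1, 0 and 485 reads in bantam sponge, against 4, 0 and 0 reads in scramble sponge, with an exact p of 0.104 in the authors' deposited table. The shallow bantam sponge library alone held 99.9% of its summed CPM. Reads of Dredd, the caspase that cleaves Relish, numbered 4, all in the middle scramble sponge library, and pirk, a negative regulator of the pathway, had 1 read in the deep scramble sponge library.

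Among 6 recognition genes, PGRP-LB, an amidase that degrades peptidoglycan, had no read. The lectin gene lectin-24Db (2L:4188123-4189284, plus strand), of the C-type lectin family, had 0 reads in each bantam sponge library, against 30, 27152 and 0 reads in the deep, middle and shallow scramble sponge libraries. The middle scramble sponge library had 623 CPM, while the deep one had 0.306 CPM and the groups met at 0. Set against 3 reads in every bantam sponge library, the scramble sponge mean was 1354-fold higher. This ratio too leaves out the spread between libraries and is not a lower bound. Without the middle scramble sponge library 30 reads would be left. The exact p was 0.00197 in the authors' deposited table and the adjusted p was 1.

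PGRP-LC, the membrane receptor of the Imd pathway, had 0 reads in bantam sponge and 291 reads, 54.8 CPM, in the shallow scramble sponge library alone (exact p = 0.128, authors' deposited table). PGRP-LE, a peptidoglycan sensor that also acts inside cells, had 6237, 3151 and 0 reads in the deep, middle and shallow bantam sponge libraries, against 0, 2250 and 0 reads in the scramble sponge libraries. The 3 libraries with reads lay between 51.6 and 72.0 CPM, and the highest of them held 40.9% of the summed CPM. PGRP-SA, a secreted sensor upstream of Toll, had 322 reads in the deep bantam sponge library and none elsewhere, and the amidase gene PGRP-SC2 had 1 and 7 reads in the middle and shallow bantam sponge libraries and none elsewhere.

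Levels of different genes were compared per kilobase of annotated exon, using the mean CPM of each genotype. In bantam sponge the highest were Tak1 at 71.9, spz at 64.2, cact at 64.1, imd at 54.8, tub at 53.7 and Toll-6 at 50.8 CPM per kilobase. In scramble sponge the highest were Drs at 540, lectin-24Db at 179, Rel at 99.9, Toll-6 at 58.8 and cact at 53.8 CPM per kilobase. Toll-6 and cact were thus near the top in both genotypes, whereas the values for Drs and lectin-24Db rest on 2 libraries and 1 library with over 100 CPM. Where reads were recovered, the spread between libraries was often above the mean, as for pll at 81.8 ± 142 CPM in bantam sponge and nec at 68.8 ± 119 CPM in scramble sponge (SD, n = 3 each). For genes without recovered reads no spread between libraries is known. Whether neighbours in these orders differ was therefore not tested.

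The middle scramble sponge library held nearly all reads of 18w, nec and lectin-24Db, and the shallow one held none of them. Drs was at a like level in both, 311 CPM in the middle and 316 CPM in the shallow scramble sponge library. Both libraries also held reads of hemocyte and fat body marker genes. The deep scramble sponge library, with 7 reads of 18w and 30 of lectin-24Db, had no read of the 5 hemocyte markers with recovered reads. For the other hemocyte markers with reads, the level in that library is not known. Of 15 hemocyte markers 10 had reads, 9 of them with folds below 0 and a median log2 fold of −5.95 over the 10, and the 5 with recovered reads (Hml, NimC1, Sr-CI, PPO1 and srp) summed to 0, 0.457 and 0 CPM in the deep, middle and shallow bantam sponge libraries, against 0, 106 and 4035 CPM in the deep, middle and shallow scramble sponge libraries. Most of the last value was PPO1, a prophenoloxidase of crystal cells, with 21263 reads there. The other hemocyte markers He, eater, lz, gcm and PPO3 had no read in any library. The 5 hemocyte markers with reads that were not recovered were read in both genotypes. Their estimated means, in bantam sponge against scramble sponge, were 728 against 443 CPM for Pxn, 93.3 against 255 CPM for crq, 2.24 against 251 CPM for Col4a1, 9.13 against 163 CPM for vkg and 142 against 1989 CPM for PPO2. Pxn, a peroxidase gene, was thus the 1 of these 5 with the higher estimate in bantam sponge. Of 13 fat body markers 9 had reads, 7 of them with folds below 0 and a median log2 fold of −8.56 over the 9, and the 5 with recovered reads summed to 0.0084, 0.434 and 0 CPM in the deep, middle and shallow bantam sponge libraries, against 6.14, 140.0 and 89.5 CPM in the deep, middle and shallow scramble sponge libraries. The larval markers Fbp1 and Fbp2, together with fit and Mal-B1, were at 0. Among the fat body markers without recovered reads, FASN1, a fatty acid synthase gene, was estimated at 231 CPM in bantam sponge and 97.4 CPM in scramble sponge, and Mtp, a lipid transfer gene, at 0.32 CPM in bantam sponge and 121 CPM in scramble sponge. Tsf1, a transferrin gene, was estimated at 39.7 CPM in bantam sponge and 78.9 CPM in scramble sponge. The yolk protein gene Yp3 had a log2 fold of −12.21 and an exact p of 0.0271 in the authors' deposited table, and no level was estimated for it. Their part in the levels of Drs, 18w, nec and lectin-24Db was not tested, and in bulk libraries of sorted cells fewer cells of a type and less RNA per cell cannot be told apart.

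**Figure D4:**
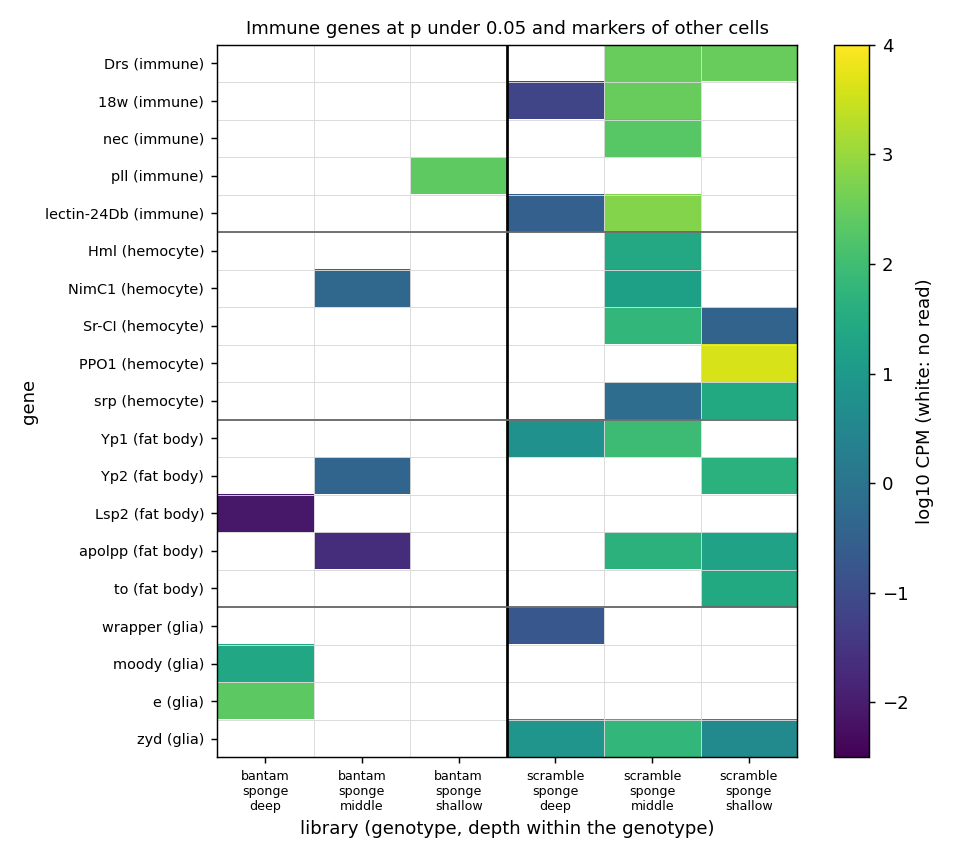
Level of the 5 immune genes at an unadjusted p under 0.05 and of all hemocyte, fat body and glia markers with recovered reads (rows) in 6 libraries (columns, bantam sponge left of the black line, scramble sponge right), as log10 CPM in colour with white for no read. The hemocyte markers shown and Drs, 18w, nec and lectin-24Db reach over 1 CPM only in the middle and shallow scramble sponge libraries.

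Of 10 glia markers 9 had reads, 6 with folds above 0 and 3 below and a median log2 fold of 1.10, and the 4 with recovered reads summed to 258, 0 and 0 CPM in the deep, middle and shallow bantam sponge libraries, against 7.72, 62.1 and 3.77 CPM in the deep, middle and shallow scramble sponge libraries. Of the 4 with recovered reads, e had 27905 reads and moody 2762, all in the deep bantam sponge library. In contrast, zyd had 0 reads in bantam sponge, against 739, 2704 and 20 reads in scramble sponge from deep to shallow. The gene wrapper had 18 reads, all in the deep scramble sponge library. Exact p-values in the authors' deposited table were 0.0367 for e and 0.0216 for zyd. The other 5 were read in both genotypes. In bantam sponge against scramble sponge, their estimated means were 1270 against 541 CPM for Gs2, 433 against 202 CPM for nrv2, 157 against 113 CPM for Eaat1, 144 against 48.7 CPM for alrm and 0.983 against 102 CPM for repo. The defining glial factor gene repo was thus the 1 of these 5 with the lower estimate in bantam sponge (exact p = 0.0525, authors' deposited table), and the part of glia in the levels of the immune genes was not tested. The shallow bantam sponge library, which held all reads of pll, had no read of the recovered hemocyte, fat body or glia markers. Markers without recovered reads, such as Gs2, Pxn, nrv2 and FASN1, have no value per library. Their reads in that library are therefore not known, and the part of such cells in the level of pll was not tested.

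A wider list of 38 Toll and Imd genes outside the 43 had 28 with reads, 11 with folds above 0 and 17 below, and none at an unadjusted p under 0.05. Those with the highest mean log2 CPM were eff, a ubiquitin-conjugating enzyme, with a log2 fold of −0.19, and Diap2, a ubiquitin ligase of the Imd pathway, with 0.60, both in the authors' deposited table. Of 40 other inducible immune genes 11 had reads (27.5%), beside 26.7% of the antimicrobial peptide genes, and none reached an unadjusted p under 0.05. The 14 JNK and p38 kinase pathway genes and the 8 JAK-STAT genes had none at that level either. Among 8 genes of antiviral RNA interference 7 had reads, 5 with folds above 0 and 2 below. Dcr-2, the Dicer that processes viral RNA, was higher in bantam sponge at an exact p of 0.0374 in the authors' deposited table. At an unadjusted p under 0.05, 0.573% of all rows and 1.06% of genes with reads were higher. Dcr-2 did not pass an adjusted p of 0.05, and neither its reads per library nor its level in each genotype is known.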

How the data were processed

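Poly(A) RNA was made into SMART-seq2 libraries with 25 cycles of PCR, per the labels' protocols, and 2 replicates were sequenced with 75-base and 1 with 150-base paired reads. The sources used here do not say which, and platform is in no test. STAR, Picard, HTSeq and edgeR are named without versions in the submitters' processing notes, and reads were aligned to dm6. The log2 fold changes and mean log2 CPM in the deposited table were made by the authors with edgeR's exact test. The p-values, as deposited by the authors, are unadjusted and two-sided. Benjamini-Hochberg and Holm adjustments over all 17117 rows were computed here.

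Library sizes and the common dispersion of 4.50 were solved from genes with 1 read in 1 library, taking prior counts of 2 (mean) and 0.125 (fold). Whole-read combinations over up to 2 libraries (listed genes up to 3, the genes described up to 4) were searched. A combination was accepted when it gave back the mean within 3e-13 and 1 dispersion met the p and the fold within 1e-09. For rows with a p of 1 only mean and fold could be met. A row counted as recovered only where exactly 1 combination was accepted. These settings were adjusted while the table was in view, and the procedure was tested on simulated data. The recovered reads served for levels only, with no new test. For genes not recovered, levels and 95% intervals (F distribution) were derived from the deposited fold and p. They assume 1 level for the 3 libraries of a genotype. In 16 of the 25 listed genes that were recovered and read in both genotypes this moved levels by factors of 0.992 to 1.04. The other 9, at a mean log2 CPM of 0 or less or an absolute log2 fold of 9 or more, were left out of this check.

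Genes at a mean log2 CPM of at least 0 were taken as having no read in 1 genotype where the absolute fold exceeded that mean by over 9.0. Replicates are labelled as biological. What was separate is not stated, so p-values measure only the spread between these samples. The genes and lists were chosen with earlier results of these data known. All 43 genes are accounted for. Of listed genes outside them, those with an unadjusted p under 0.05 or the most abundant 2 of a list could be named. Hemocyte, fat body and glia markers could be named whether or not their reads were recovered. Annotation is Ensembl release 115, on dm6 coordinates. Computations used R 4.3.3 and Python 3.11.15.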

Additional observations from a re-analysis of the deposited data

How the results depend on the processing

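No gene of the 43 passed the adjusted threshold under any of 4 alternatives (mean log2 CPM of at least 0 or 3, adjustment over genes with reads, Holm). At an unadjusted p under 0.01 the count was 0 higher and 2 lower (Drs and lectin-24Db), against 1 and 4 at 0.05. With the margin for no reads 1 higher, 0 genes were read as absent from bantam sponge and 0 as absent from scramble sponge, because genes with no read lie between the margins, against 6 and 1 as reported by the margin. From recovered reads at any level, 8 genes had no read in bantam sponge and 4 had none in scramble sponge, an alternative added after seeing the data. The median log2 fold was 1.20 over the 16 genes read in both genotypes, 0.46 at a mean log2 CPM of at least 0 and 0.43 with absent genes at their bound. Leaving out each library in turn, as reads only, left 18 to 20 recovered genes with reads, 6 to 9 with none in bantam sponge and 2 to 7 with none in scramble sponge. Without the deep bantam sponge library the last count was 2, and without the middle scramble sponge library it was 7. No p-value was computed without a library. The counts at unadjusted p and of genes with reads (23 and 19 at mean log2 CPM of at least 0 and 3) kept within 1.5 times otherwise.

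No paired analysis was possible because the table holds no value per library and the recovered libraries carry no replicate number. The planned counts of bantam seed matches and of promoter motifs were not run, since no sequence was used here.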
